A study of Rattus norvegicus with 8 samples.

Results

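The members of this set are the miRNAs of 5 hairpins that are known from leukocytes, miR-142, miR-223, miR-150, miR-342 and miR-511. They were chosen by name, with both arms of a hairpin where the table lists them, which gave 10 of the 620 mature miRNAs of the deposited table. Of these 10, 8 had a mean of at least 10 counts over the 8 rats, and miR-150* and miR-511 did not. A separate row spelled rno-mir-150* (lower case) lies outside the name rule and held at most 3 counts in a rat.

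Kidneys of 4 control rats (CTL) and 4 rats treated with aristolochic acid (AA), a nephrotoxic and carcinogenic plant compound, were compared by small RNA sequencing, with 1 library per rat. All were male Big Blue transgenic rats of the Fisher 344 strain, 6 weeks old at the start. The AA rats received the sodium salt at 10.0 mg/kg by gavage in 4 ml/kg, while the controls were given sodium chloride at 0.9%, and both were dosed on 5 days of each week. The treatment protocol and the methods state 12 weeks, whereas the descriptions of single samples state 12, 13, 14 and 15 for rats 1 to 4 of either group, at a labelled age of 18 weeks throughout. The rats were killed 1 day after the last dose, and the RNA came from a piece of whole kidney, so that a miRNA of blood or infiltrating cells is measured together with that of tubules and vessels. In such bulk samples, fewer cells of a type and less RNA per cell cannot be told apart. No messenger RNA was analysed here that could serve as a leukocyte marker, and the cell types below are background knowledge of the miRNAs.

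A miRNA is cut from one arm of a short RNA hairpin and loaded into a silencing complex, where bases 2 to 8, the seed, choose the messenger RNAs that it represses. miR-142 is made in nearly all cells of the blood lineage, both lymphoid and myeloid. miR-223 is a miRNA of granulocytes and monocytes. miR-150 is abundant in mature B and T lymphocytes, where it represses the transcription factor Myb. miR-342 is made from an intron of Evl, a regulator of the actin cytoskeleton expressed in lymphocytes and other cells. miR-511 is made from an intron of Mrc1, the gene of the macrophage mannose receptor CD206, and is used as a macrophage miRNA. In the kidney, which has resident macrophages and is infiltrated by leukocytes after tubular injury, these miRNAs are read as traces of immune cells among epithelial ones.

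The mature sequences of the members are shown because the comparisons below turn on single arms of these hairpins. The RefSeq annotation used here, on the GRCr8 assembly, gave a match for 8 of the 10 members. The sequences of miR-150 and miR-150* are not shown. The deposited table uses the older miRBase names, in which a star marked the arm thought to be minor. By their former names miR-223 is the 3p and miR-223* the 5p arm, and miR-511 is the 5p and miR-511* the 3p arm. Capitals mark the seed, and each sequence runs from 5′ to 3′.
rno-miR-142-5p: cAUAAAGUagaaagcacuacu
rno-miR-142-3p: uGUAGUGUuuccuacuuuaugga
rno-miR-223: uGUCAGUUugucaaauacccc
rno-miR-223*: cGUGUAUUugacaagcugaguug
rno-miR-342-3p: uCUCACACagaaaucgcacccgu
rno-miR-342-5p: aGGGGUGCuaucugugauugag
rno-miR-511*: aAUGUGUAgcaaaagacagga
rno-miR-511: cAUGCCUUuugcucugcacuc

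The seeds of these 8 members all differ. Among the 693 mature miRNAs of the RefSeq table, miR-532-5p has the seed of miR-511, and no other shares a seed with these 8. Of the 4 hairpins with a sequence, all lie on the + strand of GRCr8. The miR-142 hairpin lies at chr10:73055104-73055190, within the span of Tspoap1. The miR-511 hairpin lies at chr17:82187953-82188031, within the span of Mrc1. The miR-342 hairpin lies at chr6:133329655-133329753, within the span of Evl, and that of miR-223 at chrX:65151383-65151492. These are positions of the RefSeq annotation, since the deposited table names no genome build. The arms of miR-142 hold 33.3% (5p) and 34.8% (3p) G and C bases, and those of miR-342 50.0% (5p) and 52.2% (3p).

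The counts on miRNAs summed to 13736874 to 15525397 per CTL rat and 13412373 to 15616670 per AA rat. Normalized counts below are counts divided by the library's median-of-ratios size factor. A miRNA was called changed with an adjusted p under 0.05 (quasi-likelihood test of edgeR, Benjamini-Hochberg over all 620 miRNAs) and a ratio of group means over 1.5. Of the 620, 36 (5.81%) were called up and 20 (3.23%) down, 9.03% in all. Of the 10 members, 3 were called up, namely miR-511*, miR-142-3p and miR-223, none was called down, and 7 were not called. In 4 of the 10 members every AA rat was above every CTL rat, against 9.68% of all 620 miRNAs, and in none was every AA rat below, against 6.61% (16.3% in either direction). These 4 were the 3 that were called and miR-150. Among the 370 miRNAs with a mean of at least 10 counts, 8.92% were called up and 5.14% down, and in 14.3% every AA rat was above every control. The 8 members at that level had a median log2 fold change of 0.74, and the 370 miRNAs one of 0.02.

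**Figure D1:**
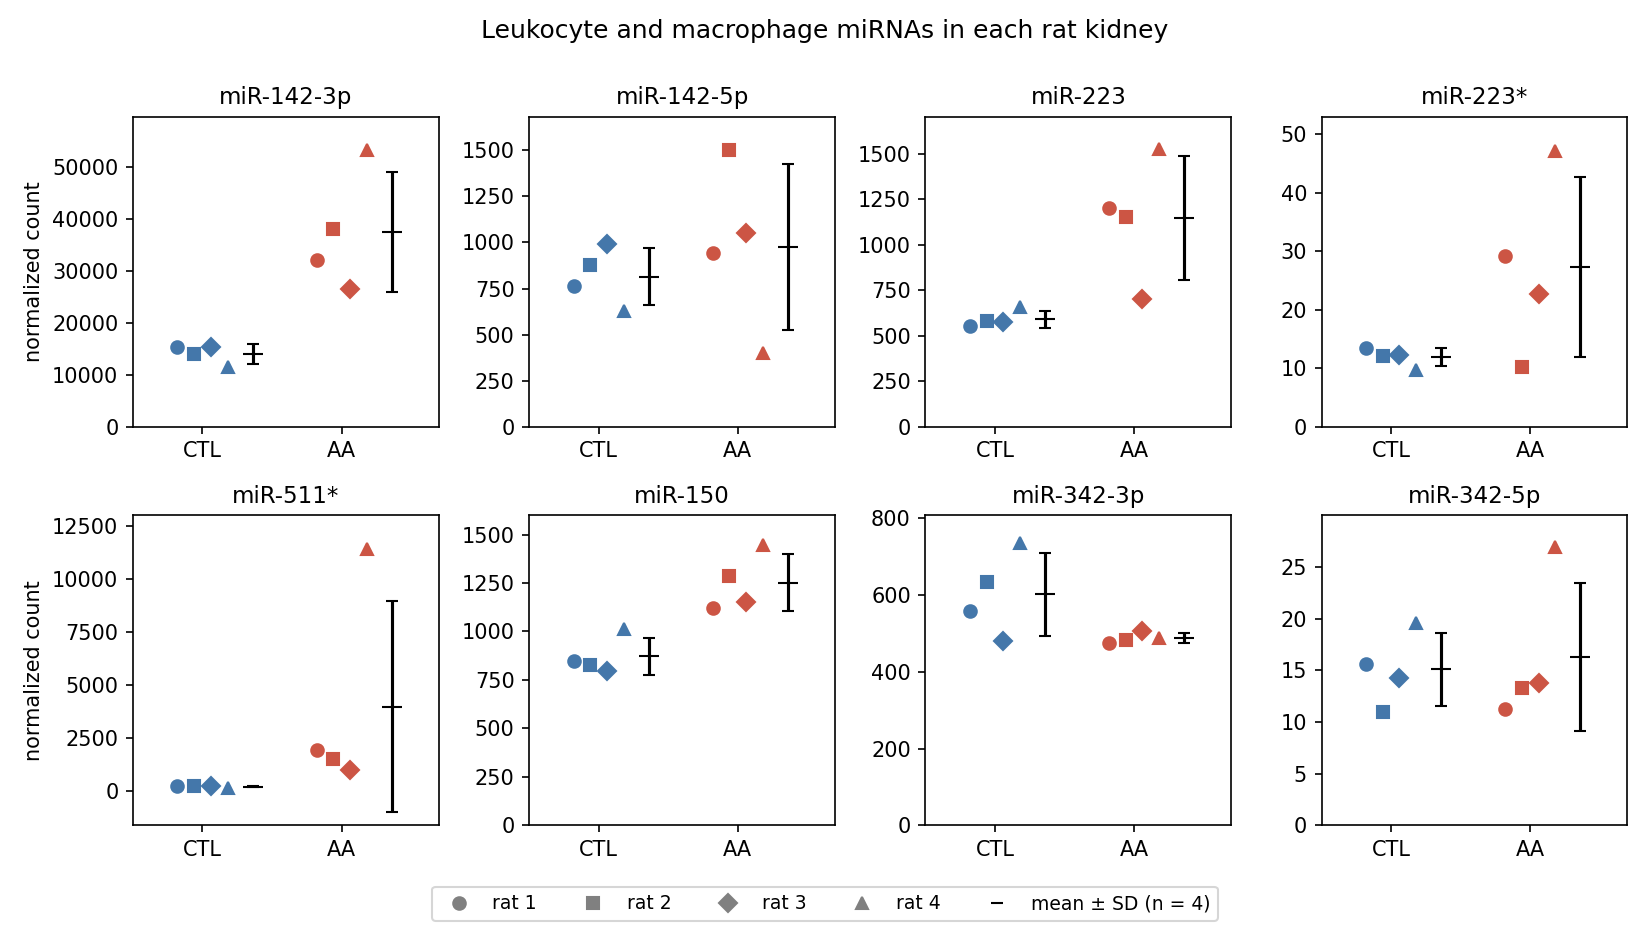
Normalized count (vertical axis) of 8 members in each of the 4 CTL and 4 AA rats, with the rat number as symbol and the mean ± SD beside each group. The groups do not overlap in miR-142-3p, miR-223, miR-511* and miR-150, and AA rat 4 is the highest rat in these 4 and the lowest in miR-142-5p.

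Together the members took a small share of each library, 0.0872% to 0.126% of the counts in the CTL rats and 0.228% to 0.540% in the AA rats. miR-142-3p alone made up 77.6% to 86.5% of these counts over the 8 rats. The control kidneys held it at 891 ± 159 CPM (SD, n = 4), the count scaled to the library's summed miRNA counts, which put it at rank 48 of the 620 miRNAs by mean normalized count. miR-150, miR-142-5p, miR-342-3p and miR-223 followed at 54.8 ± 3.76, 51.8 ± 12.6, 37.7 ± 4.89 and 37.2 ± 2.16 CPM in the CTL rats (SD, n = 4 each). The ranges of neighbours in this order overlapped, while miR-150 lay above both miR-342-3p and miR-223 in each control. miR-511* held 12.7 ± 2.65 CPM in the controls, below each of these, and the minor arms miR-342-5p and miR-223* less than 1 on average. These are levels in reads, not scaled by length.

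miR-511*, the macrophage member, rose most. Its normalized counts were 217, 209, 222.8 and 150.3 in CTL rats 1 to 4 and 1939, 1523, 996 and 11412 in AA rats 1 to 4. Even the lowest AA rat was several-fold above the highest control, and AA rat 4 stood far above the other AA rats. The ratio of group means was 19.9, and 7.44 when AA rat 4 was left out of the mean. On the log2 scale the fitted change was 4.31 ± 0.67 (SE; edgeR adjusted p = 0.00076). The fit without that rat gave a log2 fold change of 2.90. By mean normalized count miR-511* moved from rank 198 in the CTL rats to rank 88 in the AA rats, and to rank 116 when AA rat 4 was left out of the mean.

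The other arm of the same hairpin, miR-511, had no count in any CTL rat and 0, 3, 0 and 3 counts in AA rats 1 to 4. A count of 0 allows up to 3 counts, or 0.193 to 0.218 CPM in the CTL libraries. Both groups are thus at or under this limit, and no fold change is given. In these libraries the arm named as the star form supplied almost all reads of the hairpin in both groups. The limit of 3 counts covers counting error only and not the variation between rats. It also takes reads as independent, which PCR copies of a molecule are not.

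miR-142-3p, made by both lymphoid and myeloid cells, rose 2.67-fold. The CTL rats had 15358, 13967, 15439 and 11422 normalized counts and the AA rats 32077, 38202, 26580 and 53269. Every AA rat had more than the highest control, and the spread was wider among the AA rats (coefficient of variation 30.7%) than among the controls (13.4%). On the log2 scale the fitted change was 1.42 ± 0.22 (SE; edgeR adjusted p = 0.000792). The call held under all 19 alternatives, with log2 fold changes of 1.13 to 1.69.

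miR-142-5p, the other arm, did not pass the test. It had 762, 879, 992 and 627 normalized counts in the CTL rats and 944, 1503, 1052 and 402 in the AA rats. AA rats 2 and 3 were above every control, AA rat 1 lay among them and AA rat 4 was below all. Its log2 fold change was 0.26 (95% interval -0.44 to 0.96, adjusted p = 0.632 from edgeR), and -0.030 without AA rat 2.

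The 2 arms of miR-142 were then compared within each rat. Each CTL rat had 15.6 to 20.2 reads of the 3p arm per read of the 5p arm, and the AA rats had 34.0, 25.4, 25.3 and 132. The ranges did not overlap (exact permutation test of the mean log2 ratio, two-sided, p = 0.0286, the smallest that 4 rats against 4 allow). As 1 of the 28 pairs of members described below, the comparison had an adjusted p of 0.0615 in the exact permutation test and did not pass 0.05. The mean log2 ratio was higher by 1.248 in the AA rats, and by 0.687 without AA rat 4. AA rat 4 stood apart, and the other 3 AA rats were still above every control. The same rat also stood apart in the arms of miR-21, miR-126 and miR-342, and not in those of miR-144 and miR-223. It had 2505 reads of miR-21 per read of miR-21* where the other rats had 1048 to 1474. For miR-144* and miR-144, from the red cell lineage, its ratio of 16.6 lay among those of the controls (15.2 to 22.9). miR-126, a miRNA of endothelial cells, had 2.48 to 5.78 reads of miR-126 per read of miR-126* in the CTL rats and 4.81, 2.58, 3.29 and 18.3 in the AA rats, and its ranges overlapped. Of the members, the arms of miR-223 and miR-342 overlapped between the groups. There were 40.8 to 67.1 reads of miR-223 per read of miR-223* in the CTL rats and 30.9 to 114 in the AA rats (p = 0.914 in the same exact test), and 33.7 to 57.7 against 18.1 to 42.4 reads of miR-342-3p per read of miR-342-5p (p = 0.486). The miR-342 ratio of 18.1 was that of AA rat 4, and AA rats 1 to 3 had 42.4, 36.4 and 36.6.

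miR-223, the myeloid member, rose 1.94-fold. The CTL rats had 552, 579, 574 and 656 normalized counts, the closest spread of any member in the controls (coefficient of variation 7.71%). The AA rats had 1204, 1153, 700 and 1529. AA rat 3 lay just above the highest control, and the other 3 AA rats were well above it. On the log2 scale the fitted change was 0.96 ± 0.24 (SE; edgeR adjusted p = 0.0231). The call was lost when CTL rat 1, 2 or 3 was left out, with adjusted p of 0.0718, 0.0747 and 0.0674 from edgeR and log2 fold changes of 0.93, 0.94 and 0.95. The minor arm miR-223* had 13, 11, 13 and 8 counts in the CTL rats and 26, 13, 23 and 58 in the AA rats. Its log2 fold change of 1.18 (95% interval 0.24 to 2.13) had an adjusted p of 0.129 from edgeR.

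miR-150, the first of the lymphoid members, had 848, 829, 797 and 1010 normalized counts in the CTL rats and 1122, 1286, 1153 and 1447 in the AA rats. The groups did not overlap, and the difference was small. The ratio of the means was 1.44, under the threshold of 1.5, and the log2 fold change of 0.52 (95% interval 0.10 to 0.95) had an adjusted p of 0.133 from edgeR. DESeq2 gave an adjusted p of 0.0185 at the same ratio. Its minor arm miR-150* had 2, 2, 0 and 4 counts in the CTL rats and 4, 4, 5 and 24 in the AA rats, with an adjusted p of 0.175 from edgeR, and rested on AA rat 4.

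miR-342-3p, the second lymphoid member, did not pass the test in either direction. The CTL rats had 557, 634, 480 and 734 normalized counts and the AA rats 476, 483, 506 and 487. The AA rats lay close together near the lowest control. The log2 fold change was -0.30 (95% interval -0.75 to 0.15, adjusted p = 0.403 from edgeR), and -0.029 when libraries were scaled by their total counts. That scaling moves the median over the 620 miRNAs from 0.05 to 0.31 (log2). miR-342-5p had 15, 10, 15 and 16 counts in the CTL rats and 10, 17, 14 and 33 in the AA rats, a log2 fold change of 0.12 (95% interval -0.71 to 0.95, adjusted p = 0.856 from edgeR).

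**Figure D2:**
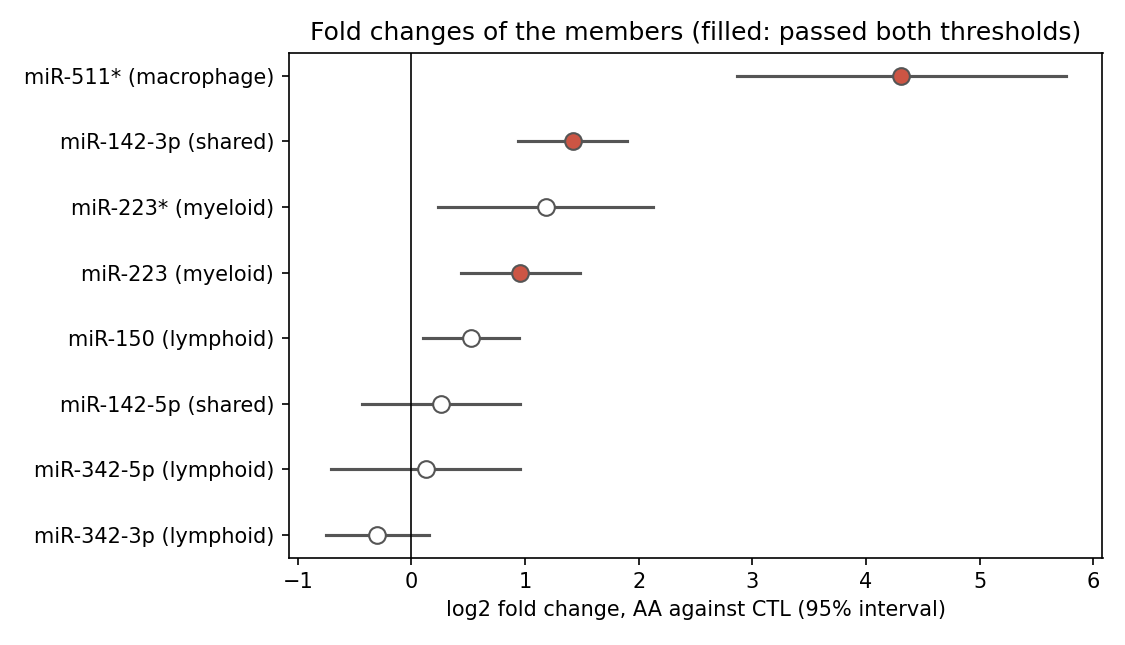
Log2 fold change, AA against CTL (horizontal axis), of 8 members with its 95% interval from edgeR, in order of size and with the cell types known for each miRNA in brackets. Filled points passed both thresholds. The macrophage member miR-511* is at 4.31, miR-142-3p at 1.42 and miR-223 at 0.96, and the lymphoid miR-150 and miR-342-3p are at 0.52 and -0.30.

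To compare the lymphoid, myeloid and macrophage members directly, the ratio of 2 members was taken within each rat, which needs no size factor. All 28 pairs of the 8 members were compared, and in 13 of them the ratios of the AA rats did not overlap those of the CTL rats. Over all pairs of the 370 miRNAs with a mean of at least 10 counts, this was so in 27.3%, and 7 of the 13 hold miR-511*, whose own groups did not overlap. Each of these 13 had p = 0.0286 in the exact permutation test (two-sided), which is the smallest p of the design, and p = 0.0615 after adjustment over the 28 pairs. None of the pairs therefore passed 0.05 after adjustment, and pairs that share a member are not independent. The sizes of these differences are given as measured.

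In all 7 pairs with the macrophage member, the ratio of miR-511* to the other member was higher in every AA rat than in any control. Per read of miR-223, the CTL rats had 0.395, 0.362, 0.389 and 0.230 reads of miR-511* and the AA rats 1.61, 1.32, 1.42 and 7.46. The rarer of these 2 miRNAs in the controls was thus the more abundant in each treated kidney, in reads. The mean log2 ratio was higher by 2.70 in the AA rats, where the pooled SD between rats was 0.88. Against miR-150 it was higher by 3.08, and against miR-342-3p by 3.88. Without AA rat 4 these 3 differences fell to 2.10, 2.40 and 3.14. Per read of miR-511* there were 66.6 to 75.4 reads of miR-142-3p in the CTL rats and 4.67 to 26.7 in the AA rats.

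The myeloid and lymphoid members were less far apart. miR-223 had 0.894 to 1.20 reads per read of miR-342-3p in the CTL rats, close to equal, and 2.53, 2.38, 1.38 and 3.14 in the AA rats. The mean log2 ratio was higher by 1.19 in the AA rats (pooled SD 0.38). Against miR-150 the comparison went less far. The CTL rats had 1.39 to 1.54 reads of miR-150 per read of miR-223 and the AA rats 0.932, 1.12, 1.65 and 0.946, so that AA rat 3 was above every control and the other 3 below (exact permutation test, two-sided, p = 0.143, adjusted p = 0.211).

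Both lymphoid members also differed from each other. The CTL rats had 1.31 to 1.66 reads of miR-150 per read of miR-342-3p, and the AA rats had 2.35, 2.66, 2.28 and 2.97. The mean log2 ratio was higher by 0.80, with a pooled SD of 0.16, and AA rat 4 lay near the others. miR-142-3p, shared by lymphoid and myeloid cells, was higher by 0.86 on the mean log2 ratio against miR-150 (pooled SD 0.31) and by 1.66 against miR-342-3p (pooled SD 0.45). Against miR-223 it was higher by 0.47, where the ranges overlapped (exact permutation test, two-sided, p = 0.0857, adjusted p = 0.141).

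**Figure D3:**
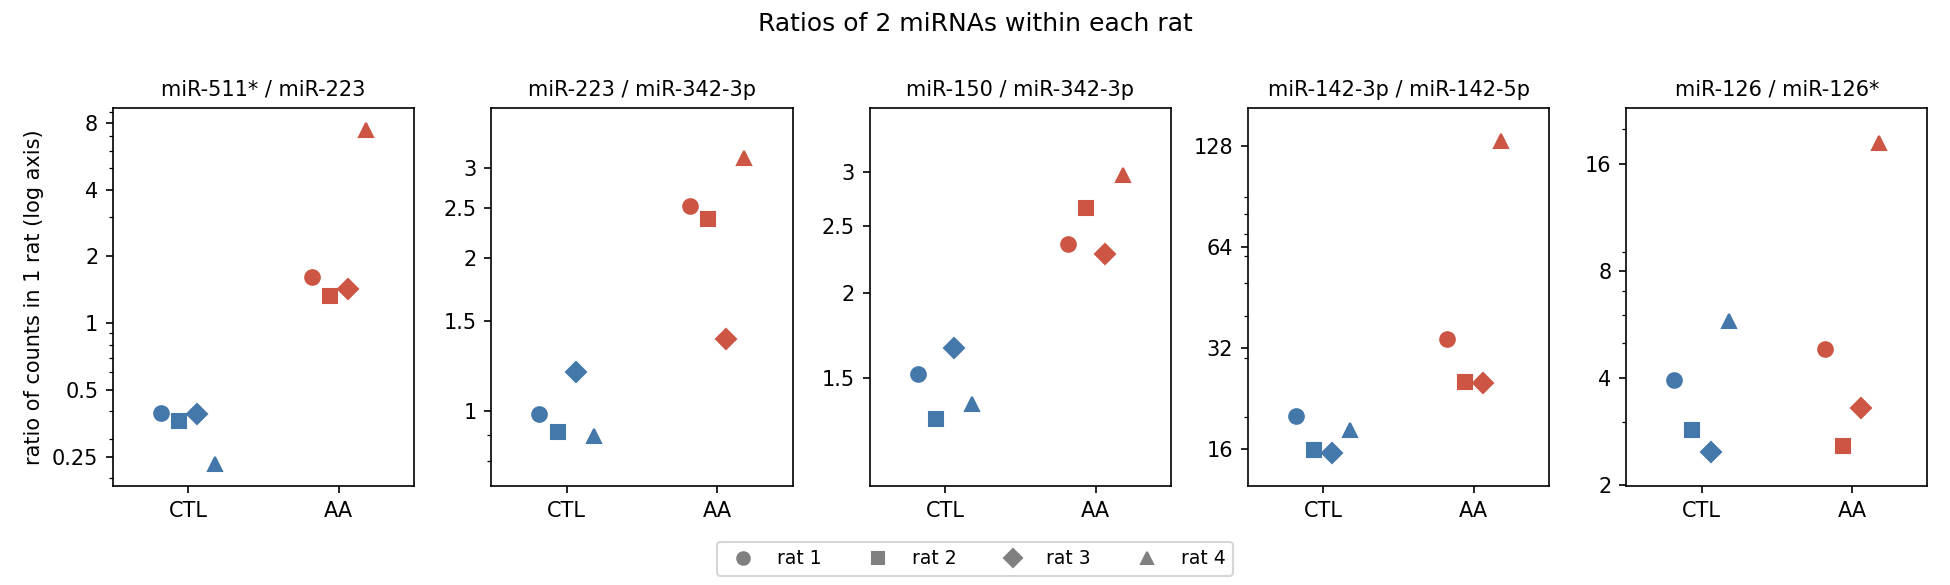
Ratio of the counts of 2 miRNAs within each rat, on log axes, for 4 pairs of members and for the arms of the endothelial miR-126, with the rat number as symbol. Counts of the first 3 pairs had 1 added. The groups do not overlap in the 4 pairs of members and overlap for miR-126, where AA rat 4 stands alone at 18.3.

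The rats varied in a similar order for several members. Over the 8 rats, log2 normalized counts of miR-142-3p correlated with those of miR-511* at a Pearson r of 0.98, of miR-223 at 0.92 and of miR-150 at 0.88, and with those of its own other arm at -0.06. The group difference enters these values. After each group's mean was subtracted, r was 0.89, 0.69, 0.36 and -0.47. These are descriptions over 8 rats, and the members compared were read from the same 8 libraries, so that they share each library's depth and size factor. Among 362 other miRNAs with a mean of at least 10 counts, those most like miR-511* were miR-425 (r = 0.99), miR-187 (0.98) and miR-872* (0.98). For miR-142-3p they were miR-130b (0.97), miR-15b* (0.97) and miR-466c (0.96). For miR-223 they were miR-187 (0.95), miR-21 (0.94) and miR-322 (0.94), and for miR-150 they were miR-152* (0.97), miR-34c (0.94) and miR-187 (0.93). miR-142-5p was closest to other miRNAs, namely miR-141 (0.92), miR-497 (0.90) and miR-802 (0.89). miR-342-3p was closest to miR-139-5p (0.94), miR-3557-3p (0.92) and miR-26a (0.90). The minor arm miR-223* was closest to miR-374 (0.92), miR-872* (0.89) and miR-425 (0.88), and miR-342-5p to miR-30b-3p (0.95), miR-181c* (0.88) and miR-96 (0.88). The group difference enters these values too. After each group's mean was subtracted, r was 0.70 for miR-150 with miR-34c and 0.79 for miR-142-3p with miR-130b. It was 0.97 for miR-511* with miR-425 and 0.95 for miR-342-5p with miR-30b-3p.

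Blood holds red cells beside leukocytes, and red cell miRNAs were therefore read beside the members. miR-451 and both arms of miR-144 are made in the red cell lineage. They were the 3 rows of the red cell list with a mean of at least 10 counts. None was called, where 8.92% of the 370 such miRNAs were called up and 5.14% down. miR-451 had 6728, 11578, 9984 and 8395 normalized counts in the CTL rats and 6310, 7857, 5262 and 2098 in the AA rats. Its log2 fold change was -0.77 (95% interval -1.46 to -0.08, adjusted p = 0.167 from edgeR). That of miR-144* was -0.71 and that of miR-144 -0.55, with adjusted p of 0.158 and 0.366 in the same test. The summed normalized counts of the list ranged from 11079 to 16985 in the CTL rats and from 3402 to 11440 in the AA rats, and AA rat 4 was lowest. In 3 of the 4 AA rats the sum was below the lowest control. The part of blood in the values of the members was not tested.

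Of 7 rows for miR-146a, miR-146b and miR-147, which are induced by inflammatory signals in leukocytes and in other cells, 2 were called up, where 5.81% of all 620 miRNAs were, and none down, with a median log2 fold change of 1.23 against 0.05 over all 620. Of the 4 rows with a mean of at least 10 counts, 1 was called up, where 8.92% of all 370 such miRNAs were, and their median was 0.63 against 0.02. miR-146b stood at 5619 ± 984 normalized counts in the CTL and 26348 ± 12391 in the AA rats (SD, n = 4 each), a rise of 4.69-fold (edgeR adjusted p = 0.000285). The row rno-mir-146b* had 3, 0, 0 and 1 counts in the CTL rats and 7, 12, 3 and 28 in the AA rats (adjusted p = 0.0281 from edgeR). AA rat 3 had no more counts than CTL rat 1, AA rat 4 had most of the AA counts, and at so few counts no fold change is given. miR-146a had a log2 fold change of -0.14 (95% interval -0.51 to 0.22). Of 9 rows of the miR-181 family, which acts in lymphocyte development, none was called, where 9.03% of all 620 miRNAs were. The median log2 fold change of the 9 rows was -0.27.

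Of the miRNAs of other kidney cells, 23 rows mark the epithelium and none of them was called up. 2 were called down, where 3.23% of all 620 miRNAs were, namely miR-204 from 447 ± 103 to 247 ± 31.9 and miR-194* from 160 ± 21.8 to 86.9 ± 16.5 normalized counts (SD, n = 4 each; adjusted p = 0.0357 and 0.0386 from edgeR), and the median log2 fold change was -0.50. In 3 rows, these 2 and miR-194, every AA rat was below every control, as in 6.61% of all 620 miRNAs. Among the epithelium rows with a mean of at least 10 counts, miR-200c, miR-141* and miR-141 went the other way. Their log2 fold changes were 0.37, 0.58 and 0.08, with overlapping groups, and those of the remaining rows were negative. The summed normalized counts of these 23 rows ranged from 2280280 to 3255410 in the CTL rats and from 1649290 to 2370320 in the AA rats. The ranges overlapped, and miR-30a, which was not called, made up most of each sum. The highest CTL sum was that of CTL rat 4, which had 1124300 normalized counts of miR-192 where the other controls had 328824 to 454738. Among 9 rows for stroma (miR-143, miR-145, miR-199a and miR-214) and 3 for the endothelium (miR-126) none was called, where 9.03% of the 620 were. The median log2 fold change was 0.22 for stroma and -0.23 for the endothelium. In 1 of the 9 stroma rows, miR-199a-3p, known from fibroblasts, every AA rat was above every control, as in 9.68% of all 620 miRNAs, with 4727, 5232, 4987 and 4375 normalized counts in the CTL rats and 5453, 7468, 8440 and 7890 in the AA rats (log2 fold change 0.60, adjusted p = 0.067 from edgeR). miR-199a-5p had a log2 fold change of 0.73 (adjusted p = 0.144 from edgeR), with overlapping groups. miR-143, the most abundant stroma row, went the other way, with a log2 fold change of -0.41 (adjusted p = 0.200 from edgeR) and overlapping groups. Summed over the 9 stroma rows, normalized counts were 2559920 to 3550830 in the CTL rats and 1973980 to 2677450 in the AA rats. These ranges overlapped, and miR-143 made up most of each sum. The part of these cell types in the values of the members was not tested.

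**Figure D4:**
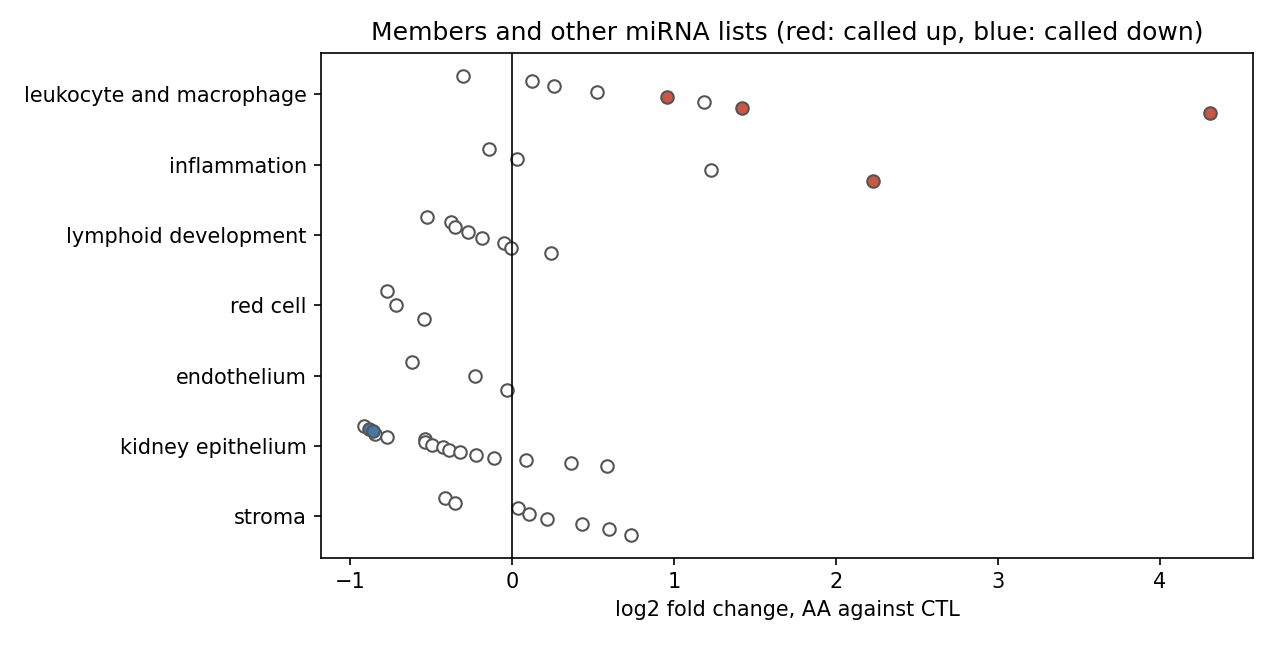
Log2 fold change, AA against CTL (horizontal axis), of the members and of 6 lists of miRNAs known from other cell types or states, each point a miRNA with a mean of at least 10 counts. Red points were called up and blue points down. 3 members are red, and the red cell, endothelium, lymphoid development and stroma lists hold no coloured point.

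Among the 8 rats, leaving out AA rat 4 moved 6 of the 10 members furthest, namely miR-511*, miR-142-3p, miR-223*, miR-342-5p and the sparse miR-150* and miR-511. miR-142-5p moved furthest without AA rat 2, miR-223 without AA rat 3 (to 1.13), and miR-150 and miR-342-3p without CTL rat 4 (to 0.59 and -0.20). Without AA rat 4, the log2 fold changes of miR-511*, miR-142-3p, miR-223 and miR-150 were 2.90, 1.21, 0.80 and 0.45, each smaller than with all rats, and that of miR-142-5p was 0.52, larger. The first 3 were still called (adjusted p up to 0.0454 from edgeR). Without both rats numbered 4, the log2 fold changes of miR-511*, miR-142-3p and miR-223 were 2.80, 1.13 and 0.86, and all 3 were called. That of miR-342-5p turned from 0.12 to -0.22 without AA rat 4.

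**Figure D5:**
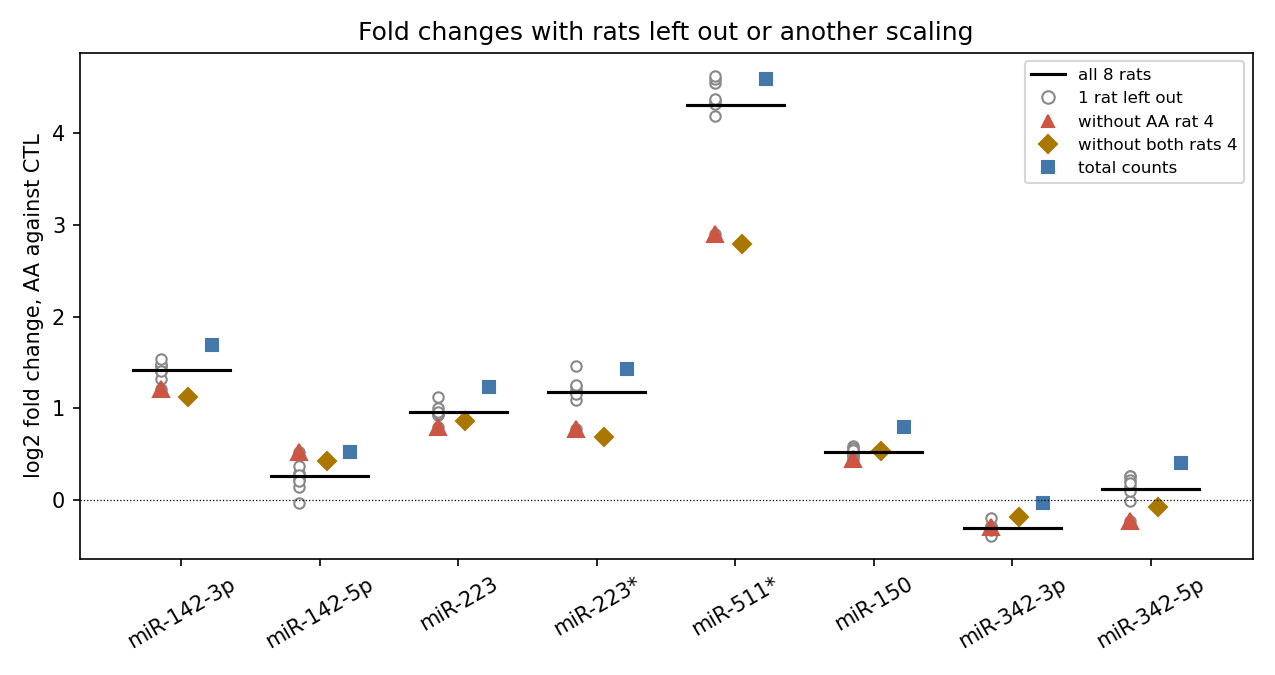
Log2 fold change, AA against CTL (vertical axis), of 8 members with all rats (line), with each rat left out in turn (circles, AA rat 4 as a triangle), without both rats numbered 4 (diamonds) and scaled by total counts (squares). miR-511* drops from 4.31 to 2.90 without AA rat 4, and total counts place every member higher.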

How the data were processed

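Small RNA libraries of 8 rat kidneys, 4 CTL and 4 AA, were read on a Genome Analyzer II with 36 cycles, and the submitters' processing notes name CASAVA 1.7. The authors masked adaptors, removed contaminated reads and assigned grouped reads to known rat miRNAs (miRBase 16) with miRanalyzer. The values the authors deposited are raw read counts per mature miRNA, not normalized. How reads matching several miRNAs were counted is not given in the sources used here. Groups came from the sample labels.

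Median-of-ratios size factors and the quasi-likelihood test of edgeR 4.0.16 (R 4.3.3) were used on all 620 miRNAs, 8 rats and no covariate. Within-rat ratios (pseudocount 1) and single values were tested with exact permutation tests over the 70 labelings. Alternatives were TMM, total counts, DESeq2 1.42.0, robust moderation, 2 minimum-count filters, limma-voom (limma 3.58.1), other pseudocounts and fold thresholds, a replicate block and left-out rats. The remaining steps used scipy 1.17.1, numpy 2.4.6 and pandas 2.3.3 under Python 3.11.15, with figures from matplotlib 3.10.9. The test was tested on simulated data. Members and lists were chosen with earlier results of these data known. Every member is named, with the 3 miRNAs most correlated with each member of mean count 10 or more, every called miRNA of the lists and the red cell rows.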

Additional observations from a re-analysis of the deposited data

Results flagged for a closer look

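In 19 groups of 4 rats, a member's highest and lowest rat were compared with the rest of its group, and 3 values of AA rat 4 lay apart by more than Dixon's 95% critical value, which chance gives in about 1 of 20 groups. For miR-511* it had 11412 normalized counts where the other AA rats had 996 to 1939, for miR-342-5p 26.9 against 11.2 to 13.8, and for miR-150* 19.5 against 3.12 to 4.93. All 3 came from the same rat, and the last 2 rest on 33 and 24 counts.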

How the results depend on the processing

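miR-511* and miR-142-3p kept their call under all 19 alternatives, with adjusted p up to 0.0416 and 0.00495, and miR-223 under 15 of 19. A fold threshold of 2 ended the call of miR-223 (log2 fold change 0.96). Leaving out single rats gave log2 fold changes of 0.80 to 1.13 for miR-223, 0.77 to 1.47 for miR-223*, -0.030 to 0.52 for miR-142-5p (lowest without AA rat 2) and -0.22 to 0.26 for miR-342-5p. miR-223* passed both thresholds without AA rat 2 (1.47, adjusted p = 0.0301 from edgeR) and with total counts (1.42, adjusted p = 0.0495), as did miR-150 with total counts (0.80, adjusted p = 0.0318). miR-342-5p turned to -0.078 without both rats numbered 4. Of 308 values of pairs under alternatives, 11 had the opposite sign, in 3 pairs whose groups overlapped. The mean log2 ratio of miR-223 to miR-223* turned from -0.03 to 0.16 with a pseudocount of 5 and to 0.023 to 0.26 with rats left out. Leaving out rats also turned miR-142-5p over miR-342-5p from 0.09 to as low as -0.24, and miR-150 over miR-142-5p from 0.39 to -0.059. The number of pairs without overlap was 13 to 17 under its 11 alternatives. Over all miRNAs, 58 were called up and 11 down with total counts, 84.1% up against 64.3%, and 12 down with a fold threshold of 2. Leaving out a rat gave 24 to 44 up and 13 to 25 down. The share of miR-342-3p, AA over CTL, moved from 0.98 to 0.79 without the 3 most abundant miRNAs. The causes were not tested.

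A shared number does not mark a shared animal. Rats of the same number do share the labelled duration of treatment. Deviations of same-numbered CTL and AA rats from their group means correlated at -0.0017 to 0.338 over 370 miRNAs. The mean was 0.153, against -0.049 for rats of different numbers, and 5 of 8 rats correlated best with their own number. With the replicate block, 74 miRNAs were called in place of 56, and the log2 fold changes of miR-511*, miR-142-3p, miR-223 and miR-150 were 3.48, 1.38, 0.91 and 0.52, with no call among the members changed. miR-511 lies at the limit of 3 counts, below which a difference was not detectable at this depth.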
